A study of Homo sapiens with 6 samples.

Results

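Interferon-stimulated genes are the genes that cells switch on when RNA sensors or interferon receptors fire. The 35 considered here (RNA sensors, transcription factors of the pathway, the OAS and IFIT families and other antiviral proteins) were taken by symbol from the expression table of H460 cells, and all 35 matched a row among its 57773 genes, with older names allowed (DDX58 for RIGI). Of these, 27 passed the filter on low values (a mean of at least 0.5 RPKM, reads per kilobase of exon scaled to the library's total reads, over the 6 libraries) and were tested, and 8 did not. The question put to the data was whether the 2 siRNAs, a non-targeting control and another against HKlincR1, which the study treats as a lincRNA, left these genes at different levels.

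H460 cells grow from a human large-cell carcinoma of the lung. Cells received either the non-targeting siRNA (siNT, 3 libraries) or the HKlincR1 siRNA siHKlincR1_2 (siHKlincR1, 3 libraries), each at 50 nM for 48 hours with the same lipid reagent and the same class of modified siRNA. The study's methods call the triplicates biological, but all come from 1 cell line and 1 siRNA per group. No library of untransfected cells was analysed here, so a response shared by both siRNAs cannot be seen in this comparison. Only 1 siRNA against HKlincR1 was sequenced. An effect of that siRNA itself and an effect of lowering HKlincR1 therefore cannot be told apart here.

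Double-stranded RNA in the cytoplasm is bound by RIG-I (encoded by DDX58) and MDA5 (encoded by IFIH1), and in endosomes by TLR3. Their signals run through adaptors and kinases to IRF3, IRF7 and NF-kB, which drive the interferon genes. Secreted interferon acts through JAK kinases on a complex that holds STAT2 and IRF9. This complex binds the interferon-stimulated response element (ISRE), found in the promoters of many, not all, of the genes described here. Short interfering RNAs can engage several of these sensors, depending on their sequence, ends and chemical modification.

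The siRNA used is shown because its strands are what the sensors would meet, with the guide's seed (bases 2 to 8) and the matching bases of the sense strand in capitals. Sequences are given as the study's methods list the sense strand, with the guide as its reverse complement and without overhangs.
siHKlincR1_2 sense: gaaguauacucGUGUGCUu
siHKlincR1_2 guide: aAGCACACgaguauacuuc
Both strands are 19 bases long. No sequence of the non-targeting siRNA was used here, so the siRNAs were not compared base by base. The seed site GTGTGCT was found in the 3′ UTR of 0 of the 27 tested members, against 14.05% of 10769 tested protein-coding genes, which describes the letters only.

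Promoter windows of 4 members are shown because the levels of these genes lay far apart although each window holds the response element. ISRE matches (GAAA, any pair of bases and GAAA, on either strand) are in capitals, in windows from 150 bases before to 30 after a RefSeq start.
IFITM3 (GRCh38.p14, chr11:320831-321010, minus strand): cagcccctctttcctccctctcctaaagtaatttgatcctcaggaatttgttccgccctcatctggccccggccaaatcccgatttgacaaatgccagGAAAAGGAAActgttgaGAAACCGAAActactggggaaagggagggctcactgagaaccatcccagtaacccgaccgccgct
OAS3 (GRCh38.p14, chr12:112938324-112938503, plus strand): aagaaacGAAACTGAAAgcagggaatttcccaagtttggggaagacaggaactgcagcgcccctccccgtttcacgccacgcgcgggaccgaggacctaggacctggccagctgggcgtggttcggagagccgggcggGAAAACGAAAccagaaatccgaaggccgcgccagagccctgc
IFIT1 (GRCh38.p14, chr10:89392473-89392652, plus strand): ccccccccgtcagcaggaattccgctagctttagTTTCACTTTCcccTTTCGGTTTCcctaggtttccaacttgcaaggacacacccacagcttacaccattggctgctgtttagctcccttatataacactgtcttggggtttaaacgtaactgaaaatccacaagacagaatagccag
MX1 (GRCh38.p14, chr21:41420408-41420587, plus strand): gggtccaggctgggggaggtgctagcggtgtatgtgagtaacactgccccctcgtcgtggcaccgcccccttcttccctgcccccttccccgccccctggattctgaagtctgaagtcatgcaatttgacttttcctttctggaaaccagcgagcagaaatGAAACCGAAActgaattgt
The windows of IFITM3, OAS3 and IFIT1 each held 2 matches, and that of MX1 held 1, which lies after its start. MX1 has 3 starts in the RefSeq table and the first is shown. Of the others, 1 window held no match and 1 held a match 196 bases before its start, outside the length shown. Over the full window of 250 bases before to 50 after the start, 21 of the 28 members with a RefSeq entry (75%) held the element, against 4.376% of 27305 genes. The gamma-activated site, searched as TTC, any 3 bases and GAA on both strands, was found for 9 of the 28 members (32.14%) against 9.376% of genes. The other 7 members (DHX58, IRF3, IRF7, OAS2, OASL, IFIT2 and MX2) have no entry in the table used.

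HKlincR1 (GRCh37 chr4:6665123-6678482, plus strand), the target, was read first as a check of the labels. It stood at 3.62, 3.47 and 3.83 RPKM in siNT libraries 1 to 3 and at 0.563, 0.628 and 0.390 RPKM in siHKlincR1 libraries 1 to 3, so the groups did not overlap and the mean was 85.5% lower. The exact two-sided permutation test over libraries gave p = 0.10, the smallest that 3 against 3 allows, and limma called the gene at a log2 difference of -2.59 (SE 0.17, 95% interval -3.00 to -2.19, adjusted p = 0.00245). HKlincR1 shares 282 exonic bases with LINC02482 on the other strand, and whether the counting used strand is not given in the sources used here. GENCODE v44 lists HKlincR1 as protein-coding, while the study treats it as a lincRNA. Libraries held 24980280 to 30521000 reads in all. Of the epithelial markers, KRT8, KRT18 and KRT19 were present at 28.1 to 88.5 RPKM while EPCAM and CDH1 were at most 0.110 RPKM. The 8 immune-cell markers summed to 0.156 to 0.399 RPKM per library and the 3 endothelial ones to at most 0.0217 RPKM. The 5 fibroblast markers summed to 14.8 to 17.4 RPKM with siNT and 18.7 to 22.6 RPKM with siHKlincR1, most of it COL3A1. COL1A1 went the other way, at 0.998, 1.08 and 1.23 RPKM with siNT and 0.548, 0.419 and 0.773 RPKM with siHKlincR1 (log2 difference -0.85, adjusted p = 0.196), and DCN was at or near 0. Their part in the results was not tested.

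None of the 27 tested members passed the study's cut-offs in a limma fit to RPKM values. The study itself tested read counts with edgeR. It reported far more changed genes, most of them higher with siHKlincR1, so the counts given here are not its own. limma, fitted to log2(RPKM + 0.1) of all 15451 tested genes, called 0 members (a Benjamini-Hochberg adjusted p under 0.05 with more than a 1.5-fold difference), against 0.362% of all tested genes. By direction, 0.356% of all tested genes (55) were called lower and 0.00647% (1) higher with siHKlincR1. At an unadjusted p under 0.05 there were 5 members lower (DDX58, OAS3, IFIT1, IFIT3 and IFI44), against 9.19% of all tested genes, and 1 higher (IFITM3), against 7.04%. Including the shared replicate number in the fit also called 0 members, against 1.32% of all genes, and so did voom on the reads worked back from the RPKM values.

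The fitted differences leaned lower rather than higher with siHKlincR1. Of the 27 tested members, 19 had a log2 difference below 0, against 49.8% of all tested genes, and their median was -0.13 against 0.0011 for all tested genes. In 12 members the siHKlincR1 library was lower than the siNT library of the same number in all 3 pairs (25.2% of all tested genes), and in 3 it was higher in all 3 pairs (24% of all tested genes). Both groups' libraries were fully apart in 5 members that were lower (DDX58, STAT2, OAS3, IFIT1 and PARP9; 11.9% of all tested genes) and in 1 that was higher (IFITM3; 10.1%). In each of these 6 members the exact permutation test over libraries gave p = 0.10, the smallest it can give.

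Missing the threshold does not show that the siRNAs act alike, so the intervals bound what these libraries leave possible. The 95% interval of the difference lay within 2-fold in both directions for 25 of the 27 tested members. The exceptions were OASL, whose lower bound was -1.27, and IFITM1, whose upper bound was 1.13 on the log2 scale. For 24 members the upper bound was below a 1.5-fold rise with siHKlincR1, and the others were DHX58, IRF7 and IFITM1.

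**Figure D1:**
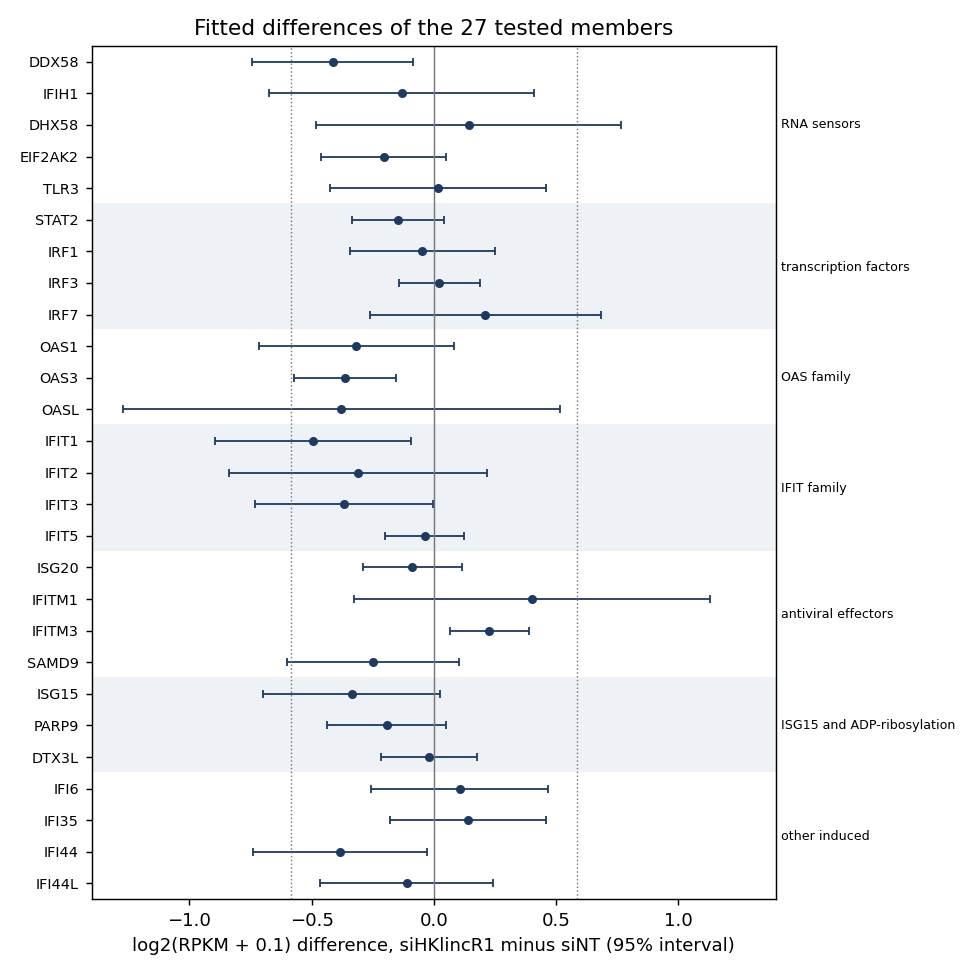
Fitted log2(RPKM + 0.1) differences (x axis, siHKlincR1 minus siNT) with 95% intervals for the 27 tested members, grouped by role. Dotted lines mark a 1.5-fold difference, and the points run from -0.49 (IFIT1) to 0.40 (IFITM1).

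Among the RNA sensors, DDX58, which encodes RIG-I, was the only one whose groups did not overlap. DDX58 (GRCh37 chr9:32455300-32526206, minus strand) stood at 2.41, 2.34 and 2.27 RPKM in siNT libraries 1 to 3 and at 1.58, 2.12 and 1.54 RPKM in siHKlincR1 libraries 1 to 3. All 3 siHKlincR1 libraries were below all 3 siNT libraries, and library 2 came closest to them. The log2 difference was -0.41 (SE 0.14, 95% interval -0.74 to -0.084, adjusted p = 0.251), so it was not called. EIF2AK2, the kinase PKR that halts translation on double-stranded RNA, was the most abundant sensor, at 17.9, 20.3 and 19.4 RPKM with siNT and 16.3, 14.7 and 19.2 RPKM with siHKlincR1. Its groups overlapped, since siHKlincR1 library 3 lay within the siNT range, and the difference was -0.21 (SE 0.11, 95% interval -0.46 to 0.049, adjusted p = 0.376). IFIH1, DHX58 (the regulator LGP2) and TLR3 were low, between 0.590 and 2.11 RPKM in any library, with log2 differences of -0.13, 0.14 and 0.018. The siNT and siHKlincR1 libraries overlapped in all of these 3.

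The transcription factors of the pathway showed no call. IRF3, which is activated by phosphorylation rather than by new synthesis, was the most abundant, at 8.56, 9.08 and 9.26 RPKM with siNT and 9.39, 8.67 and 9.27 RPKM with siHKlincR1. These values overlapped, and the difference of 0.022 (SE 0.071, 95% interval -0.14 to 0.19, adjusted p = 0.890) was among the smallest of the tested members. IRF3 shares 734 exonic bases with BCL2L12 on the opposite strand. STAT2, which carries the interferon signal to the nucleus, was at 5.21, 4.92 and 4.78 RPKM with siNT and 4.66, 4.23 and 4.56 RPKM with siHKlincR1, with no overlap and a difference of -0.15 (SE 0.079, 95% interval -0.33 to 0.041, adjusted p = 0.388). IRF1 and IRF7 were at most 2.18 RPKM, with differences of -0.048 and 0.21. IRF9, which binds DNA together with STAT2, was at most 0.256 RPKM and was not tested.

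The OAS enzymes make the short oligoadenylates that switch on RNase L, and all 3 tested members of the family had a fitted difference below 0. OAS3 (GRCh37 chr12:113375856-113414265, plus strand) was at 17.5, 18 and 18.5 RPKM in siNT libraries 1 to 3 and at 13.8, 12.6 and 15.6 RPKM in siHKlincR1 libraries 1 to 3. The groups did not overlap. The log2 difference was -0.36 (SE 0.088, 95% interval -0.57 to -0.15, adjusted p = 0.167), or a fold of 0.778. With the replicate number in the limma fit its adjusted p was 0.0616 (0.0111 to 0.492 over all alternatives), without a call. OAS1 was at 18.2, 17.7 and 23.2 RPKM with siNT and 14.4, 13.4 and 19.96 RPKM with siHKlincR1. The libraries numbered 3 were the highest of both groups, so that the groups overlapped while each siHKlincR1 library was below the siNT library of its number. The OAS1 difference was -0.32 (SE 0.17, 95% interval -0.72 to 0.083, adjusted p = 0.383). With the replicate number in the limma fit its interval was -0.47 to -0.17 (adjusted p = 0.0592, and 0.0171 to 0.706 over all alternatives), without a call. OASL, a catalytically inactive relative, was at 2.25, 2.09 and 2.66 RPKM with siNT and 1.1, 3.49 and 1.4 RPKM with siHKlincR1. The siHKlincR1 libraries lay on both sides of the siNT libraries, and the difference of -0.38 (SE 0.38, 95% interval -1.27 to 0.52, adjusted p = 0.630) had the widest interval of the tested members. It ran from -0.85 without siHKlincR1 library 2 to -0.060 without siHKlincR1 library 1. OAS2 stayed at or below 0.265 RPKM.

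The IFIT proteins bind foreign RNA ends and are among the most strongly interferon-induced genes in most cells, and IFIT1 had the lowest fitted difference of all members. IFIT1 (GRCh37 chr10:91152303-91166244, plus strand) was at 1.42, 1.56 and 1.79 RPKM in siNT libraries 1 to 3 and at 0.890, 1.28 and 1.15 RPKM in siHKlincR1 libraries 1 to 3, from 78 to 147 reads a library. The groups did not overlap. The difference was -0.49 (SE 0.17, 95% interval -0.90 to -0.093, adjusted p = 0.256). With the replicate number in the limma fit its adjusted p was 0.107 (0.0469 to 0.567 over all alternatives), without a call. IFIT3 was at 4.87, 5.35 and 5.13 RPKM with siNT and 3.13, 4.89 and 4.0 RPKM with siHKlincR1, and siHKlincR1 library 2 reached the siNT range. Its difference was -0.37 (SE 0.15, 95% interval -0.73 to -0.0029, adjusted p = 0.306). IFIT5 was the most abundant of the family and nearly flat, at 6.03, 6.41 and 6.15 RPKM with siNT and 5.88, 6.17 and 6.05 RPKM with siHKlincR1. The IFIT5 difference was -0.038 (SE 0.069, 95% interval -0.20 to 0.12, adjusted p = 0.801). IFIT2 had a difference of -0.31 and overlapping groups, with siHKlincR1 library 2 above all siNT libraries and the other two below them. It ran from -0.58 without siHKlincR1 library 2 to -0.15 without siHKlincR1 library 3.

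IFITM3, which blocks the entry of enveloped viruses, was by far the most abundant member and the only one higher without overlap. IFITM3 (GRCh37 chr11:319676-329475, minus strand) was at 136, 142 and 143 RPKM in siNT libraries 1 to 3 and at 176, 162 and 155 RPKM in siHKlincR1 libraries 1 to 3. Every siHKlincR1 library was above every siNT library. The difference was 0.23 (SE 0.069, 95% interval 0.065 to 0.39, adjusted p = 0.225), or a fold of 1.17. With the replicate number in the limma fit its adjusted p was 0.108 (0.0475 to 0.553 over all alternatives), without a call. Its neighbour IFITM1 was at 0.601, 0.546 and 0.482 RPKM with siNT and 1.14, 0.768 and 0.464 RPKM with siHKlincR1, from 13 to 35 reads a library, with overlapping groups. IFITM2, a near-identical neighbour that is not a member and is named after its values were seen, was at 49.5, 50.6 and 44.5 RPKM with siNT and 64.7, 57.4 and 59.7 RPKM with siHKlincR1, with a difference of 0.33 (SE 0.078, 95% interval 0.15 to 0.51, adjusted p = 0.160). Reads of these 3 genes could be split between them by the counting, so their separate levels are uncertain.

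Of the other antiviral effectors, ISG20, an exonuclease, was at 5.73, 5.48 and 5.14 RPKM with siNT and 5.33, 5.33 and 4.71 RPKM with siHKlincR1, with overlapping groups and a difference of -0.088 (SE 0.086, 95% interval -0.29 to 0.11, adjusted p = 0.620). SAMD9 was lower in all 3 pairs, with a difference of -0.25 and overlapping groups. MX1, the dynamin-like GTPase that blocks influenza virus, was between 0.140 and 0.281 RPKM in the 6 libraries and was not tested. RSAD2 (viperin) was at most 0.165 RPKM.

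ISG15, a ubiquitin-like protein attached to other proteins, was at 6.64, 5.25 and 6.53 RPKM with siNT and 3.90, 5.54 and 5.17 RPKM with siHKlincR1. Its groups overlapped, since siHKlincR1 library 2 was above siNT library 2, and the difference was -0.34 (SE 0.15, 95% interval -0.70 to 0.026, adjusted p = 0.330). DTX3L, a ubiquitin ligase that works with PARP9, was at 6.84, 7.25 and 6.24 RPKM with siNT and 6.63, 7.01 and 6.40 RPKM with siHKlincR1, with overlapping groups and a difference of -0.019 (SE 0.083, 95% interval -0.21 to 0.18, adjusted p = 0.922). PARP9 itself had a difference of -0.19 and groups that did not overlap. PARP9 and DTX3L share 139 exonic bases on opposite strands, so these reads cannot be assigned where strand was not used.

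Among the remaining induced genes, IFI35 was at 9.97, 9.30 and 8.89 RPKM with siNT and 11.7, 11.4 and 8.33 RPKM with siHKlincR1 and IFI6 at 9.66, 8.18 and 6.71 RPKM with siNT and 10.0, 8.63 and 7.65 RPKM with siHKlincR1. In both genes the libraries numbered 3 were the lowest of their group and the groups overlapped. The differences were 0.14 (SE 0.14, 95% interval -0.18 to 0.46, adjusted p = 0.616) for IFI35 and 0.11 (SE 0.15, 95% interval -0.25 to 0.47, adjusted p = 0.743) for IFI6. IFI44 (GRCh37 chr1:79115481-79129763, plus strand) was at 5.93, 6.52 and 5.77 RPKM in siNT libraries 1 to 3 and at 4.10, 4.07 and 5.92 RPKM in siHKlincR1 libraries 1 to 3. The siHKlincR1 libraries 1 and 2 were below all siNT libraries, and library 3 lay among them. The IFI44 difference was -0.38 (SE 0.15, 95% interval -0.74 to -0.027, adjusted p = 0.293). Without both libraries numbered 3, an alternative chosen after seeing the data, IFI44 was called with a difference of -0.59 and an adjusted p of 0.0329 by limma, the 1 member called in any fit (adjusted p 0.0282 to 0.606 over all alternatives, the lowest at a fold below 1.5). That fit called 440 genes in all, so a call in it does not set IFI44 apart from other genes. IFI44L had a difference of -0.11 and overlapping groups.

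MX2, XAF1, BST2 and IFI27 were at or near 0 in both groups, whereas 27 of the 35 members passed the filter. MX2 had 0 reads in all 6 libraries, which allows up to 0.00675 to 0.00825 RPKM (3 reads over the exon length of the current annotation, covering counting error only). That length can exceed the one behind the RPKM values, as for MX1 (17984 against 8611 bases), so the limit for MX2 may be higher. XAF1 had 0 to 4 reads, BST2 (tetherin) 1 to 6 reads and IFI27 2 to 14 reads a library. These 4 had a mean of at most 0.1 RPKM, and no fold was computed for them. IRF9, OAS2, MX1 and RSAD2 were the other 4 below the filter.

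**Figure D2:**
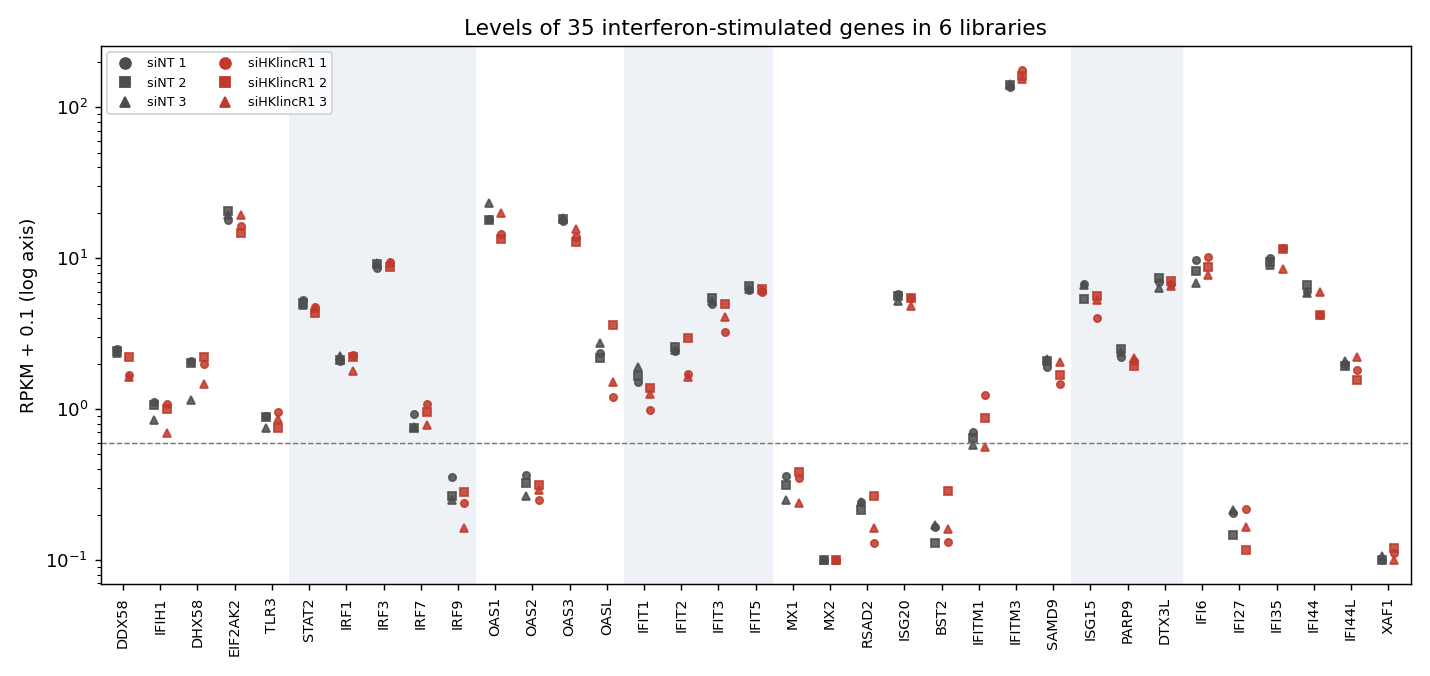
RPKM + 0.1 on a log axis for the 35 members in the 3 siNT (grey) and 3 siHKlincR1 (red) libraries, with the marker shape giving the library number and shaded bands separating the roles. The dashed line marks the filter of 0.5 RPKM (drawn with the 0.1 added), and the levels run from 0 (MX2) to 176 RPKM (IFITM3).

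Summed over the 35 members, the levels were 281 to 291 RPKM with siNT and 290.2 to 304 RPKM with siHKlincR1. IFITM3 alone made up 136 to 176 RPKM of this, and without it the sums were 146 to 148 RPKM with siNT and 128 to 135 RPKM with siHKlincR1. This split was chosen after the values were seen. Within each library, the median deviation of the tested members from the siNT mean ran from -0.032 to 0.015 on the log2 scale with siNT and from -0.12 to -0.048 with siHKlincR1, while that of all tested genes stayed between -0.0043 and 0.011. Because each gene's own siNT mean was subtracted, the siNT medians are centred by construction. The gap between the groups is therefore partly built in. A median over 27 genes can also vary more than a median over 15451 genes, and this gap was not tested.

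The spread among the siHKlincR1 libraries differed from member to member. Library 1 was the lowest for IFIT1, IFIT3, OASL and ISG15 and the highest for IFITM1, library 2 was the highest of its group for OASL, IFIT2 and IFIT3, and library 3 was the highest for OAS1, EIF2AK2 and IFI44. In 8 tested members the libraries numbered 3 were the lowest of both groups (24% of all tested genes), and in 4 they were the highest of both groups (22.7% of all tested genes).

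**Figure D3:**
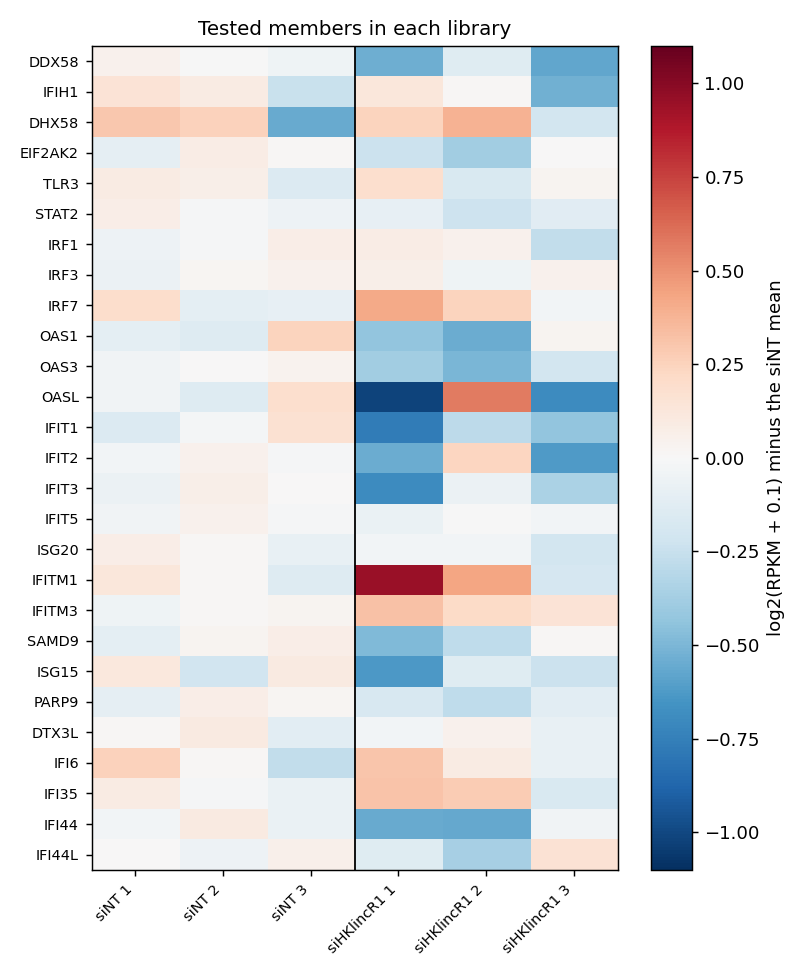
log2(RPKM + 0.1) minus the siNT mean (colour) for the 27 tested members (rows) in each library (columns), with a line between siNT and siHKlincR1. Blue cells are below the siNT mean, and the median of a siHKlincR1 column lies between -0.12 and -0.048.

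The interferon genes themselves, upstream of the members, were almost silent. Of 21 interferon genes 17 had 0 reads in all 6 libraries, IFNB1 (interferon beta) among them, for which 0 reads allow up to 0.117 to 0.143 RPKM. IFNE had the highest level, at most 0.367 RPKM, and none of the 21 passed the filter.

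Receptors and kinases were expressed and none of 10 was called. At an unadjusted p under 0.05, 2 were lower (9.19% of all tested genes) and 0 higher (7.04% of all tested genes). IFNGR2, a chain of the interferon gamma receptor, was at 16.6, 16.9 and 16.5 RPKM with siNT and 13.4, 13.1 and 12.6 RPKM with siHKlincR1, with no overlap and a difference of -0.35 (SE 0.061, 95% interval -0.49 to -0.21, adjusted p = 0.0865). With the replicate number in the fit its adjusted p was 0.0444, but its fold stayed below 1.5 (adjusted p 0.0108 to 0.336 over all alternatives). IFNLR1, the interferon lambda receptor, was at 1.64, 1.85 and 1.89 RPKM with siNT and 1.06, 1.02 and 1.60 RPKM with siHKlincR1, with a difference of -0.54 (SE 0.19, 95% interval -0.98 to -0.10, adjusted p = 0.257). Without siHKlincR1 library 3, IFNLR1 was called at -0.73 (adjusted p = 0.0338, and 0.0338 to 0.571 over all alternatives), in a fit that called 520 genes in all.

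Of 12 tested sensing adaptors and kinases none was called, and 1 was lower at an unadjusted p under 0.05 (9.19% of all tested genes). That gene, STING1, the adaptor of DNA sensing, was at 0.833, 0.808 and 0.707 RPKM with siNT and 0.484, 0.548 and 0.443 RPKM with siHKlincR1, with a difference of -0.58 (SE 0.20, 95% interval -1.04 to -0.12, adjusted p = 0.250). With voom and the replicate number in the fit STING1 was called at -0.67 (adjusted p = 0.0331, and 0.0331 to 0.550 over all alternatives), among 424 genes called in all. TRIM25, the ubiquitin ligase that acts on RIG-I, is named after its values were seen. It was at 24.1, 24.8 and 19.2 RPKM with siNT and 38.7, 42.4 and 22.2 RPKM with siHKlincR1, and the difference was 0.55 (SE 0.24, 95% interval -0.016 to 1.12, adjusted p = 0.315). Without siHKlincR1 library 3 it was called, at a difference of 0.84 and an adjusted p of 0.0282, which ran from 0.0101 to 0.631 over all alternatives. The fit without that library called 520 genes in all. TLR7, TLR8 and ZBP1 had 0 reads in all libraries.

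Of 5 tested feedback genes none was called. USP18, which shuts off the interferon receptor and has a near-identical copy, was at 5.55, 5.77 and 4.98 RPKM with siNT and 4.87, 4.73 and 5.52 RPKM with siHKlincR1, with a difference of -0.11 (SE 0.10, 95% interval -0.33 to 0.12, adjusted p = 0.585). SOCS3 was higher at 0.26 (adjusted p = 0.272) and PIAS1 lower at -0.29 (adjusted p = 0.235), both without overlap and neither called.

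A further 27 tested interferon-stimulated genes were not called either, with 4 lower (9.19% of all tested genes) and 5 higher (7.04% of all tested genes) at an unadjusted p under 0.05 and a median log2 difference of 0.020. UBE2L6, the enzyme that hands ISG15 to its targets, was at 1.79, 1.79 and 1.37 RPKM with siNT and 2.91, 2.46 and 2.48 RPKM with siHKlincR1. Its groups did not overlap, and the difference was 0.64 (SE 0.14, 95% interval 0.31 to 0.97, adjusted p = 0.136). With voom and the replicate number in the fit UBE2L6 was called at 0.66 (adjusted p = 0.0193, and 0.0193 to 0.454 over all alternatives), among 424 genes called in all. SHISA5 was at 19.5, 18.4 and 20.1 RPKM with siNT and 15.0, 13.7 and 12.5 RPKM with siHKlincR1, with a difference of -0.49 (SE 0.085, 95% interval -0.70 to -0.29, adjusted p = 0.0865). ZC3HAV1, the antiviral protein ZAP, had a difference of -0.41 (SE 0.15, 95% interval -0.75 to -0.060, adjusted p = 0.268) and overlapping groups. With the replicate number in the fit SHISA5 and ZC3HAV1 had adjusted p-values of 0.0475 and 0.0493, with folds still below 1.5 (adjusted p 0.00588 to 0.336 and 0.00670 to 0.577 over all alternatives).

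The 12 antigen presentation genes, which interferon raises together, held no call. By limma without the replicate number 0 were at an unadjusted p under 0.05, against 9.19% of all tested genes lower and 7.04% higher. With it in the limma fit TAP2 (-0.27, adjusted p = 0.132) and TAPBP (-0.16, adjusted p = 0.123) were under that limit, both lower and neither called. These 2 are named after their values were seen. Of the 12 genes, 9 had a difference below 0 (49.8% of all tested genes). In 5 all 3 pairs were lower (25.2%), and in 0 all 3 were higher (24%). The median log2 difference of the antigen presentation genes was -0.088, and 0 were called by voom as well.

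The 14 tested NF-kB targets, which the same sensors can raise, held 0 calls by limma. At an unadjusted p under 0.05, NFKBIA and IL1B were lower (9.19% of all tested genes) and 0 were higher (7.04% of all tested genes). With the replicate number in the fit 4 of them (share of all genes not given here) had an adjusted p under 0.05. Of these, IL1A was called, higher at 0.59 (adjusted p = 0.0313), while 3 were lower at folds below 1.5, namely BIRC3 at -0.55 (adjusted p = 0.0274), CCL20 at -0.50 (adjusted p = 0.0315) and NFKBIA at -0.36 (adjusted p = 0.0444). BIRC3 and CCL20 are named after their values were seen.

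**Figure D4:**
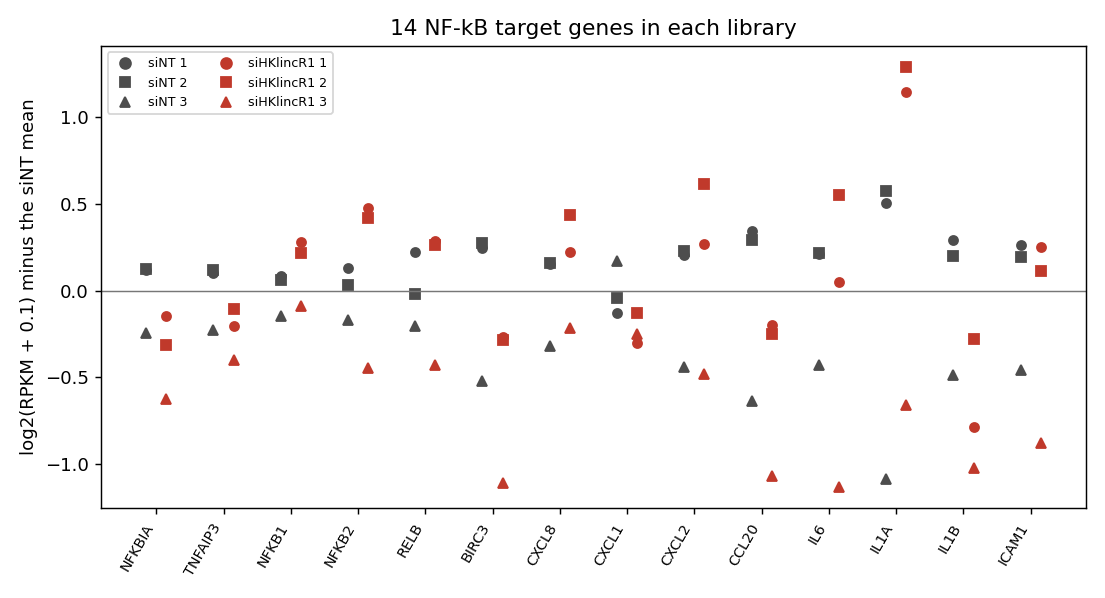
log2(RPKM + 0.1) minus the siNT mean (y axis) for the 14 tested NF-kB targets in the siNT (grey) and siHKlincR1 (red) libraries, with the marker shape giving the library number. The libraries numbered 3 (triangles) are the lowest of both groups in 13 of the 14 genes.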

How the data were processed

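Strand-specific polyA libraries of H460 cells were sequenced by the authors, who used featureCounts with the Ensembl v74 models (GRCh37 and CASAVA 1.8.2 in the submitters' processing notes) and deposited an RPKM table. The aligner is not given in the sources used here. Per-library reads were worked back from the unrounded RPKM values, and 100% of 152380 nonzero values came out whole (tolerance 1e-06). Identifiers were named with GENCODE v44 on GRCh37 (55538 of 57773), and 173 of 176 list genes matched.

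limma 3.58.1 in R 4.3.3 (lmFit, eBayes with a mean-variance trend) was fitted to log2(RPKM + 0.1), a scale that understates changes of low genes, for genes averaging 0.5 RPKM or more, with Benjamini-Hochberg adjustment. A call needed an adjusted p below 0.05 and more than a 1.5-fold difference. On simulated data the share of false calls was near the nominal one without a replicate block and above it with the block, mostly in genes with few reads. The simulated reads had the same dispersion for every gene and no shift by replicate number. The share of false calls in the real libraries may therefore differ. Permutation tests were exact and two-sided (scipy 1.17.1).

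Deviations from the group means correlated at 0.137 to 0.266 between libraries of the same number and at -0.209 to 0.113 between the others. The highest of the others, siNT library 1 with siHKlincR1 library 2, was near the same-number value of siNT library 1 (0.142). These values therefore set libraries 1 and 2 apart only weakly. The numbers were taken as pairs and a fit with a replicate block was run. Alternatives were other pseudocounts, filters and scaling, no trend, voom on the reads, and leaving out libraries. Members and gene lists were chosen with earlier results of these data known. Members with an unadjusted p under 0.05, the 2 most abundant per role and those at or under 0.1 RPKM were named, and up to 3 genes of each pathway list by size among those with an unadjusted p under 0.05, plus IFNB1 and USP18. 1 other gene that the rule names is not reported here.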

Additional observations from a re-analysis of the deposited data

How the results depend on the processing

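No member was called in the 16 alternative fits other than IFI44, which was called without both libraries numbered 3. Of 428 member values under alternatives 415 kept their direction and side of the threshold, and 19 of the 27 tested members kept their sign throughout. The log2 differences of the other 8 changed sign when 1 library was left out. Their ranges over these fits were -0.26 to 0.068 for IFIH1, -0.13 to 0.31 for DHX58, -0.067 to 0.11 for TLR3, -0.11 to 0.062 for IRF1, -0.011 to 0.057 for IRF3, -0.076 to 0.030 for DTX3L, -0.028 to 0.23 for IFI6 and -0.25 to 0.014 for IFI44L. Without both libraries numbered 3, TLR3 (-0.067) and IRF1 (0.10) also changed sign. The members' median log2 difference was -0.076 with a pseudocount of 1 and -0.19 with a filter of 1 RPKM (23 members), and -0.17 to -0.11 when each library was left out.

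Over all tested genes, the 56 calls became 17 without the trend, 89 with voom, 204 with the replicate block (125 lower, 79 higher), 424 with voom and the block and 440 without both libraries numbered 3. Leaving out each library gave 7 to 520 calls, the highest without siHKlincR1 library 3 (315 lower, 205 higher). Of the 204 calls with the block 12 were genes averaging under 20 reads, where the simulated data gave most of the false calls, and 0 tested members averaged so few. The pathway lists held 0 calls, and 1 with the replicate block (IL1A), 4 with voom and the block (IL1A, IL1B, STING1 and UBE2L6), 2 without both libraries numbered 3 (IL1A and TRIM25) and 0 to 2 when each library was left out (IFNLR1 and TRIM25, without siHKlincR1 library 3). Pairing by the block changed no other call among the members and lists. The cause of these changes was not tested. A count of 0 limits MX2 and the interferon genes.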

Other observations

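The NF-kB targets, a list beside the interferon-stimulated genes, moved with the replicate number. This comparison was not planned, and of the pathway lists it was made for this one only. In 13 of 14 tested targets the libraries numbered 3 were the lowest of both groups (24% of all tested genes), the exception being CXCL1. IL1A, an inflammatory cytokine, was at 57.8, 60.7 and 19.1 RPKM with siNT and 90.03, 99.6 and 25.7 RPKM with siHKlincR1. Its log2 difference was 0.59 (SE 0.62, 95% interval -0.87 to 2.06, adjusted p = 0.644), and with the replicate number in the limma fit its adjusted p was 0.0313 and it was called, higher in 3 of 3 pairs (adjusted p 0.00190 to 0.981 over all alternatives). Leaving out 1 library moved its difference from 0.051 (without siNT library 3) to 1.22 (without siHKlincR1 library 3). IL1B was at 5.38, 5.04 and 3.09 RPKM with siNT and 2.5, 3.60 and 2.10 RPKM with siHKlincR1, with a difference of -0.69 (SE 0.26, 95% interval -1.30 to -0.088, adjusted p = 0.273), and was called with voom and the replicate number in the fit at -0.72 (adjusted p = 0.0135, and 0.0135 to 0.575 over all alternatives). The fit that called IL1B called 424 genes in all. NFKBIA, the inhibitor of NF-kB, had a difference of -0.36 (SE 0.15, 95% interval -0.71 to -0.010, adjusted p = 0.302), and an adjusted p of 0.0444 with the replicate number in the fit and a fold below 1.5 (0.00840 to 0.525 over all alternatives). The part of the libraries numbered 3 in these differences was not tested.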
